A study of Mus musculus with 15 samples.

Results

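The genes described here are 7 ligands and 3 receptors of the epidermal growth factor (EGF) receptor family in mouse colon. They were taken by symbol from the table of estimated counts: *Ereg*, *Areg*, *Epgn*, *Btc*, *Hbegf*, *Tgfa* and *Nrg1* among the ligands, and *Egfr*, *Erbb2* and *Erbb3* among the receptors. All 10 symbols were found among the 32544 of the table, and all 10 passed the filter on low counts that left 17477 genes for testing. *Epgn* passed it only through its wild type and VAA libraries after DSS.

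Total RNA of colon was sequenced from mice of 3 *Tert* genotypes, where *Tert* encodes the reverse transcriptase of telomerase: wild type (WT, TERT+/+), an allele whose product the series describes as enzymatically inactive (VAA, TERTVAA), and a knockout (KO, TERT-/-). Per genotype, 2 libraries came from untreated mice and 3 from mice given dextran sulfate sodium (DSS), which damages the lining of the colon and is used to model colitis. Mice of 8 to 12 weeks drank 3% DSS over 4 days and plain water over the next 4 days, and were sampled on day 8. All tissue is whole colon, so each value is a mean over every cell type present, and fewer cells of a type cannot be told apart from less RNA per cell.

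Ligands of this family are made as membrane proteins, are cut free by metalloproteases such as ADAM17 and ADAM10, and bind receptor tyrosine kinases that pair with one another. EGFR binds EREG, AREG, EPGN, BTC, HBEGF and TGFA. ERBB3 binds the neuregulin NRG1, has a weak kinase and signals with a partner, and ERBB2 has no known ligand of its own and is the favoured partner of the others. In the colon the receptors sit on epithelium, NRG1 is mainly a stromal product, and EGFR ligands are known for their part in repair of the crypts after injury.

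Library totals ran from 10.6 to 17.5 M counts. *Tert* had 7 to 40 counts in each WT and VAA library and 0 or 1 in each KO library. The shallowest library, VAA DSS replicate 3, stood apart from the others on the second principal component (19.3% of the variance). A pair of untreated libraries, WT replicate 2 and KO replicate 2, came from males by *Ddx3y*, and all other libraries came from females. No label says whether replicates came from separate mice, cages or days. The untreated WT libraries differed in sex, as did the untreated KO libraries, so neither pair came from a single mouse. Each *P* value reflects only how far these samples differ, which in the other groups may be technical. Levels are given as scaled counts per M counts (CPM), and differences as log2 fold changes ± SE from edgeR's quasi-likelihood test. A gene is called where its Benjamini-Hochberg adjusted *P*, over all genes tested in a comparison, is under 0.05.

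The ligand genes *Epgn*, *Ereg*, *Areg* and *Btc* are neighbours on mouse chromosome 5 and together span 376 kb (GRCm38, which is mm10, with GENCODE M21 gene bounds). *Epgn* lies at chr5:91027464-91035215 and *Ereg* at chr5:91074622-91093646, 39.4 kb apart. *Areg* follows at chr5:91139599-91148432, 46.0 kb beyond *Ereg*. *Btc* lies on the other strand at chr5:91357261-91402994, 209 kb beyond *Areg*. Of these neighbours, *Ereg* and *Areg* rose with DSS in WT and VAA colon, *Epgn* had 3 counts or fewer in every other library, and *Btc* was called in no comparison, so the stretches before the start sites of those with an entry in RefSeq's promoter table (GRCm38.p6) are shown side by side. They cover chr5:91027267-91027516 on the plus strand (*Epgn*), chr5:91139349-91139598 on the plus strand (*Areg*) and chr5:91402995-91403244 on the minus strand (*Btc*). Each is 250 bases long, written 5′ to 3′ on the gene's strand and ending at the base before the RefSeq start, with capitals at matches to the cyclic AMP response element TGACGTCA or its core TGACG on either strand.
*Epgn*: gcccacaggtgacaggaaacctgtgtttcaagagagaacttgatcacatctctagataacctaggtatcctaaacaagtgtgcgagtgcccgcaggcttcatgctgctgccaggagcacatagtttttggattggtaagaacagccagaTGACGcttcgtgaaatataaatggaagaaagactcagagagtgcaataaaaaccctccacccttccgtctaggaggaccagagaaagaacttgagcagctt
*Areg*: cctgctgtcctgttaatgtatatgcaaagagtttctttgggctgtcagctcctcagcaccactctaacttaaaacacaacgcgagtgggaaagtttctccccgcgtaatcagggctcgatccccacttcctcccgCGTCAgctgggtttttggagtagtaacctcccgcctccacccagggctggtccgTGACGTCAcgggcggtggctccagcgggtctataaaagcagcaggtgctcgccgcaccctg
*Btc*: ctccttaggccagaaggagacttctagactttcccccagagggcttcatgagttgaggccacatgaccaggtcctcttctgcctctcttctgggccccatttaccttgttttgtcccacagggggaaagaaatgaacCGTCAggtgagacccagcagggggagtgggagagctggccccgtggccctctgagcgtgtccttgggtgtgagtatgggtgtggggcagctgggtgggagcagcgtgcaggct

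The full element was matched in the *Areg* stretch alone among the 6 members with an entry (*Epgn*, *Areg*, *Btc*, *Tgfa*, *Egfr* and *Erbb2*), 61 bases before the start. It is held by 1.79% of all 32851 promoters in the table, counted over windows of 300 bases that run 50 bases past the start. The core, which overlaps it, was matched in *Areg* at 115, 61 and 58 bases before the start, in *Epgn* at 101, in *Btc* at 113 and in *Erbb2* at 171, and in 20.8% of promoters. The AP-1 element TGANTCA (7.81% of promoters) and the STAT element TTCNNNGAA (8.30%) had no match in these 6 windows. A match says only that the letters are there.

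Compared per length of transcript, the receptors were the most abundant members in untreated colon. In WT untreated colon *Erbb3* stood at 78.9 ± 11.2 CPM per kb (SD, n = 2), *Erbb2* at 50.9 ± 8.26 and *Egfr* at 37.4 ± 2.90, taking the median length of each gene's protein-coding transcripts. The ligands followed with *Areg* at 12.3 ± 3.10 CPM per kb, *Tgfa* at 11.2 ± 0.34, *Hbegf* at 7.35 ± 3.47, *Nrg1* at 5.54 ± 1.03, *Btc* at 4.57 ± 0.28, *Ereg* at 3.15 ± 0.31 and *Epgn* at 0.026 ± 0.037. *Areg* and *Tgfa*, and likewise *Hbegf*, *Nrg1* and *Btc*, differed from their neighbour in this order by less than the larger SD. The places of *Egfr*, *Tgfa* and *Nrg1* depend on the length used, and the 3 coding transcripts of *Egfr* run from 463 to 10208 nucleotides. With each gene's longest coding transcript *Egfr* stood at 10.8 CPM per kb, below *Areg*, *Tgfa* at 6.09, below *Hbegf*, and *Nrg1* at 2.48, below *Btc* and *Ereg*.

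DSS changed 7 of the 10 genes in WT colon and 7 in VAA colon, and none was called in KO colon. *Ereg*, *Nrg1*, *Epgn* and *Areg* rose in both WT and VAA, *Erbb2* and *Erbb3* fell in both, *Tgfa* was called higher in WT and *Hbegf* in VAA. Over all genes tested, 14.1% were called higher and 12.5% lower in WT, 10.9% and 9.54% in VAA, and 5.59% and 5.06% in KO. In KO colon 1 of the 10 genes, *Areg*, had an unadjusted *P* under 0.05 with edgeR, and 1 was called by DESeq2 and 1 by limma. The share of all genes at that unadjusted cut was not computed, and those of DESeq2 and limma are not given here. The edgeR counts of called genes in WT and VAA include *Epgn*, which entered the test only through the WT and VAA DSS libraries. Without it they are 6 of 9 in WT and 6 of 9 in VAA. The median change of the 10 genes, *Epgn* included, was 0.36 in WT, 0.76 in VAA and 0.11 in KO, beside -0.01, 0.06 and 0.00 over all genes tested. Averaged over genotypes 8 of the 10 were called, 6 higher and 2 lower, beside 22.5% and 20.0% of all genes, and without *Epgn* 7 of 9 were. The averaged changes were 1.61 ± 0.19 for *Ereg*, 1.59 ± 0.21 for *Nrg1*, 0.62 ± 0.19 for *Hbegf*, 0.52 ± 0.13 for *Areg*, 0.26 ± 0.08 for *Tgfa*, -0.37 ± 0.10 for *Erbb3* and -0.47 ± 0.09 for *Erbb2* (adjusted *P* from 2.3e-05 to 0.018). *Egfr* (0.13 ± 0.08, adjusted *P* = 0.22) and *Btc* (-0.07 ± 0.12, adjusted *P* = 0.68) were not called.

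**Figure D1:**
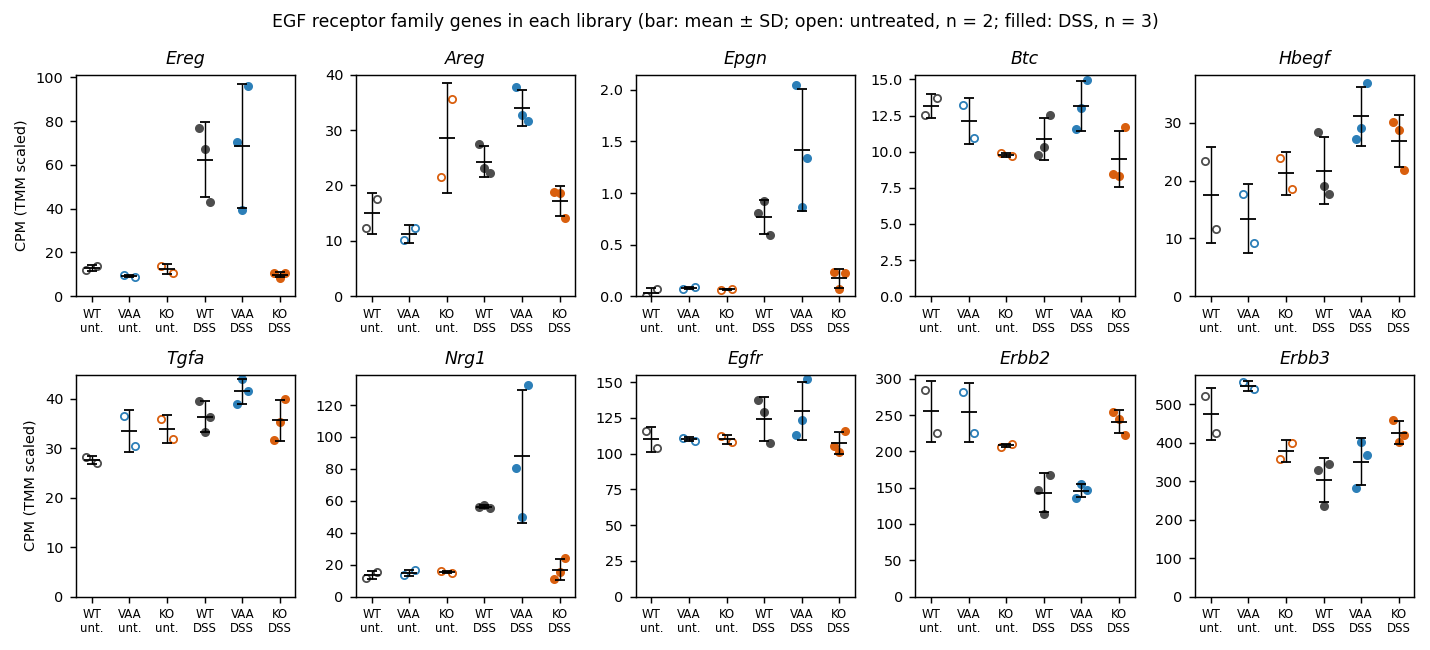
Level of each of the 10 genes in every library, in CPM on a linear axis that starts at 0, by genotype and treatment. Open points are untreated libraries (n = 2 a group), filled points DSS libraries (n = 3), and bars the mean ± SD. *Ereg*, *Nrg1* and *Epgn* are high in the WT and VAA libraries after DSS and not in the KO libraries, and *Erbb2* is low in the former.

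*Ereg* encodes epiregulin, a ligand that binds EGFR with low affinity and sustains its signal. In untreated colon it stood at 12.1 and 13.9 CPM in WT, 9.58 and 8.85 in VAA, and 14.0 and 10.8 in KO. After DSS it stood at 76.7, 67.2 and 43.3 CPM in WT, 70.4, 39.5 and 96.0 in VAA, and 10.7, 8.52 and 10.5 in KO. Every WT and VAA library after DSS was above every untreated library, and the 3 KO libraries after DSS were below both untreated KO libraries. The change with DSS was 2.26 ± 0.33 in WT (4.79-fold, adjusted *P* = 0.00044) and 2.89 ± 0.35 in VAA (7.41-fold, adjusted *P* = 9.9e-05), and in KO it was -0.32 ± 0.32 (adjusted *P* = 0.57). In order of group mean, VAA DSS (68.6 ± 28.3 CPM, SD, n = 3) and WT DSS (62.4 ± 17.2) came first and lay within their spread of each other. WT untreated (13.01 ± 1.30, n = 2), KO untreated (12.4 ± 2.3), KO DSS (9.92 ± 1.21, n = 3) and VAA untreated (9.22 ± 0.52, n = 2) followed, each neighbour within 1 SD except KO DSS below KO untreated. Without VAA DSS replicate 3, its highest library, the VAA change was 2.57 (adjusted *P* = 5.5e-05).

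*Areg* encodes amphiregulin, a ligand made by epithelium and by immune cells of tissue repair. It went from 12.3 and 17.6 CPM in untreated WT colon to 27.6, 23.1 and 22.3 after DSS, and from 10.2 and 12.3 to 37.7, 32.8 and 31.6 in VAA. In KO colon it was higher untreated, at 21.5 and 35.7 CPM, than after DSS, at 18.8, 18.6 and 14.0. Groups did not overlap in any genotype, and KO moved the opposite way from WT and VAA. The change was 0.70 ± 0.23 in WT (adjusted *P* = 0.04), 1.60 ± 0.24 in VAA (adjusted *P* = 0.00048) and -0.73 ± 0.22 in KO (adjusted *P* = 0.052). The WT call was lost without WT untreated replicate 1 (0.45, adjusted *P* = 0.33) and without any 1 of the 3 WT DSS libraries (adjusted *P* = 0.12, 0.074 and 0.052 for replicates 1 to 3). The KO value was called without KO untreated replicate 1 (-1.05, adjusted *P* = 0.037) and without VAA DSS replicate 3 (-0.73, adjusted *P* = 0.029), and without the male KO untreated replicate 2, where *Areg* was highest, it was nearer 0 and not called (-0.32, adjusted *P* = 0.47).

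*Epgn* encodes epigen, a low-affinity EGFR ligand, and was the scarcest member. It had 0 and 1 counts in untreated WT libraries, 1 in each of the other 4 untreated libraries, 11, 12 and 10 counts in WT after DSS, 34, 15 and 14 in VAA and 3, 1 and 3 in KO. Every WT and VAA library after DSS held more counts than any other library. Summed over a group and scaled, the count after DSS was 22.3 times the untreated one in WT (33 against 1 counts, exact 95% counting interval 3.73 to 906), 18.3 times in VAA (63 against 2, 4.85 to 154) and 2.52 times in KO (7 against 2, 0.479 to 24.8). These intervals cover counting error only. Because *Epgn* was tested only through the libraries where it is high, its edgeR values describe those libraries and support nothing further: the adjusted *P* was 0.0034 in WT, 0.0018 in VAA and 0.44 in KO.

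The other EGFR ligands moved less. *Hbegf* encodes heparin-binding EGF-like growth factor and lies on chromosome 18. Its untreated levels were spread widely, from 9.28 to 23.9 CPM, and after DSS it stood at 17.7 to 28.4 CPM in WT, 27.3 to 36.9 in VAA and 21.8 to 30.1 in KO. It rose in VAA (1.20 ± 0.33, adjusted *P* = 0.021), was not called in WT (0.31 ± 0.32) or KO (0.34 ± 0.32), and the VAA call was lost without VAA untreated replicate 2 (0.81, adjusted *P* = 0.21) and when the fit held just the 2 groups compared (adjusted *P* = 0.086). *Tgfa*, for transforming growth factor alpha, ran from 27.0 to 36.5 CPM untreated and from 31.5 to 43.9 after DSS. Its WT change of 0.40 ± 0.14 was at the edge of the threshold (adjusted *P* = 0.048) and lost its call without any 1 of the 5 WT libraries, at an adjusted *P* of 0.059 to 0.21. *Btc* encodes betacellulin, and its 15 values lay between 8.32 and 14.97 CPM with changes of -0.27 ± 0.20 in WT, 0.12 ± 0.20 in VAA and -0.04 ± 0.20 in KO.

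*Nrg1* encodes neuregulin 1, the ligand of ERBB3. Untreated libraries held it at 11.7 and 15.2 CPM in WT, 13.6 and 16.3 in VAA and 15.7 and 14.8 in KO. After DSS it stood at 56.1, 57.4 and 55.5 CPM in WT, 80.4, 50.2 and 133 in VAA and 11.2, 15.5 and 23.8 in KO. WT libraries were close to one another, VAA libraries were spread, and KO values straddled the untreated ones. The change was 2.07 ± 0.37 in WT (4.19-fold, adjusted *P* = 0.0015) and 2.55 ± 0.37 in VAA (5.86-fold, adjusted *P* = 0.0004), beside 0.14 ± 0.35 in KO (adjusted *P* = 0.84). The highest value came from VAA DSS replicate 3, without which the VAA change was 2.12 (adjusted *P* = 0.00019). That library also held the highest sum of 7 fibroblast markers, at 3332 CPM against 1288 and 1975 in the other VAA DSS libraries, and of 8 markers of enteric glia and neurons, at 135 against 24.2 and 33.4 CPM. The same library was highest of all for the summed markers of endothelium (193 CPM), neutrophils (770), squamous epithelium (28.9) and type 2 innate lymphoid and regulatory T cells (99.6). The sums of the remaining marker lists did not peak there. The part of any of these cell types in the *Nrg1* level was not tested.

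**Figure D2:**
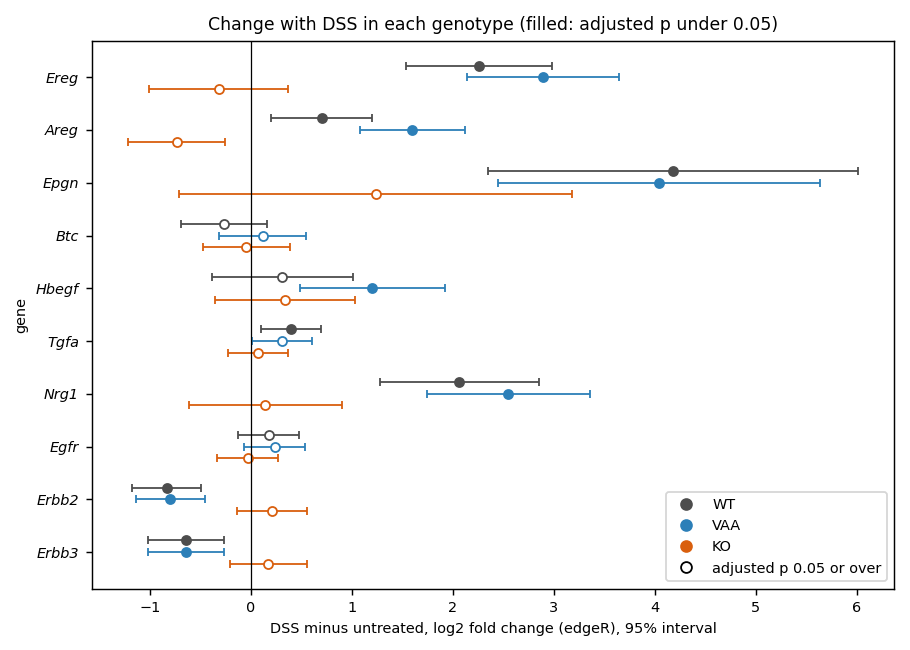
Log2 fold change of DSS against untreated colon for each gene and genotype, from edgeR, with filled points for an adjusted *P* under 0.05. Bars show the 95% interval built from the SE, which was derived from the test's F statistic. WT and VAA points lie together for most genes, and the KO points of *Ereg*, *Areg*, *Nrg1*, *Erbb2* and *Erbb3* lie nearer 0 or on its other side.

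Among the receptors, *Erbb2* and *Erbb3* fell with DSS in WT and VAA colon, and *Egfr* was not called in any comparison. *Erbb2* stood at 284 and 226 CPM in untreated WT libraries and at 147, 114 and 168 after DSS. In VAA it stood at 282 and 225 CPM before and at 136, 155 and 146 after DSS, and in KO at 206 and 210 before and at 254, 245 and 223 after. Every DSS library was below both untreated ones in WT and VAA and above both in KO. The KO part rests on the scaling factors, which were 0.918 to 0.961 after DSS and 1.077 and 0.986 untreated. On library totals alone, KO DSS replicate 3 (3000 of 14.7 M counts) was below both untreated KO libraries. The change was -0.83 ± 0.16 in WT (adjusted *P* = 0.0023), -0.80 ± 0.16 in VAA (adjusted *P* = 0.0031) and 0.21 ± 0.16 in KO (adjusted *P* = 0.44). The VAA call was lost without VAA untreated replicate 1 (-0.63, adjusted *P* = 0.059).

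*Erbb3*, the most abundant receptor transcript, stood at 522 and 427 CPM in untreated WT, 557 and 540 in VAA and 358 and 398 in KO. After DSS it stood at 328, 237 and 345 CPM in WT, 284, 402 and 368 in VAA and 459, 401 and 420 in KO. The pattern was that of *Erbb2*, with DSS libraries below the untreated ones in WT and VAA and above them in KO. Here too the KO part rests on the scaling factors. On library totals alone, KO DSS replicate 2 (5881 of 15.3 M counts) was not above the untreated KO libraries. The change was -0.64 ± 0.17 in WT (adjusted *P* = 0.017), -0.64 ± 0.17 in VAA (adjusted *P* = 0.019) and 0.17 ± 0.18 in KO (adjusted *P* = 0.57). The WT call was lost without WT untreated replicate 1 (adjusted *P* = 0.16) or WT DSS replicate 2 (adjusted *P* = 0.063), and the VAA call without either VAA untreated library (adjusted *P* = 0.11 and 0.079) or VAA DSS replicate 1 (adjusted *P* = 0.067), and when the fit held just the 2 groups compared (adjusted *P* = 0.11). *Egfr* lay between 101 and 152 CPM in all 15 libraries, with changes of 0.18 ± 0.14 in WT (95% interval -0.12 to 0.48), 0.24 ± 0.14 in VAA (-0.06 to 0.54) and -0.03 ± 0.14 in KO (-0.33 to 0.27).

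Under DSS the genotypes were compared directly. KO colon held less *Ereg*, *Nrg1* and *Epgn* and more *Erbb2* than WT colon, and the same 4 genes and *Areg* were called between KO and VAA colon. KO minus WT was -2.65 ± 0.29 for *Ereg* (6.28-fold lower, adjusted *P* = 0.0007), -1.74 ± 0.31 for *Nrg1* (3.34-fold lower, adjusted *P* = 0.0098), -2.10 ± 0.57 for *Epgn* (adjusted *P* = 0.049) and 0.75 ± 0.14 for *Erbb2* (adjusted *P* = 0.013). Background shares were 2.46% of all genes called lower and 3.21% higher. *Ereg* had the 95th lowest log2 fold change of 17477 genes. The 5 genes not called between KO and WT and not described elsewhere ran from -0.50 ± 0.20 (*Areg*, adjusted *P* = 0.17) through *Egfr* (-0.21 ± 0.12), *Btc* (-0.20 ± 0.18) and *Tgfa* (-0.03 ± 0.12) to 0.31 ± 0.28 (*Hbegf*, adjusted *P* = 0.58). The *Epgn* value, of a gene tested only through its high libraries, was at the threshold and lost its call without any 1 of the 6 libraries compared (adjusted *P* = 0.054 to 0.2); its summed count in WT was 4.42 times that in KO (33 against 7 counts, 95% counting interval 1.92 to 11.8). The *Erbb2* call was lost without WT DSS replicate 2 (0.61, adjusted *P* = 0.068) or KO DSS replicate 1 (0.71, adjusted *P* = 0.056).

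KO minus VAA was -2.79 ± 0.29 for *Ereg* (6.90-fold lower, adjusted *P* = 0.00029), -2.38 ± 0.32 for *Nrg1* (5.20-fold lower, adjusted *P* = 0.00095), -2.98 ± 0.55 for *Epgn* (adjusted *P* = 0.0044) and -0.99 ± 0.20 for *Areg* (adjusted *P* = 0.0075). *Erbb2* was higher by 0.72 ± 0.14 (adjusted *P* = 0.0065). Of all genes, 9.41% were called lower and 6.01% higher. The *Epgn* value again describes the libraries that admitted it to the test. *Btc* (-0.47 ± 0.18, adjusted *P* = 0.10), *Egfr* (-0.27 ± 0.12, adjusted *P* = 0.18), *Tgfa* (-0.22 ± 0.12, adjusted *P* = 0.27) and *Hbegf* (-0.21 ± 0.28, adjusted *P* = 0.71) were not called. Both comparisons use the same 3 KO libraries. Without VAA DSS replicate 3 the *Ereg* and *Nrg1* differences were -2.47 (adjusted *P* = 0.00017) and -1.95 (adjusted *P* = 0.00068). *Erbb3* was higher in KO by 0.49 ± 0.16 against WT (adjusted *P* = 0.086) and by 0.28 ± 0.16 against VAA (adjusted *P* = 0.28), which missed the threshold.

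Between VAA and WT colon after DSS none of the 10 genes was called by edgeR, DESeq2 or limma, where edgeR called 0.00572% of all genes. *Areg* had an unadjusted edgeR *P* under 0.05, with VAA above WT by 0.49 ± 0.20 (adjusted *P* = 0.28), and the 3 VAA libraries were above the 3 WT libraries. The 95% interval of the *Ereg* difference ran from -0.44 to 0.71 and that of *Nrg1* from -0.01 to 1.28. The differences of the 9 genes other than *Areg* ran from 0.03 (*Erbb2*) to 0.89 (*Epgn*), at an adjusted *P* of 0.31 to 0.93. In untreated colon no gene of the 10 was called by edgeR in any pair of genotypes, where 0% of all genes were called. The counts at an unadjusted *P* under 0.05 were 0 for VAA against WT, 1 for KO against WT and 2 for KO against VAA, and DESeq2 called 1, *Areg*, in the last. The share of all genes at that unadjusted cut was not computed, and that of DESeq2 is not given here. Untreated *Areg* was higher in both KO libraries than in any WT or VAA library, by 0.93 ± 0.25 against WT (adjusted *P* = 1) and 1.35 ± 0.26 against VAA (adjusted *P* = 0.86). The lowest untreated differences were -0.50 for *Ereg* between VAA and WT, -0.42 for *Btc* between KO and WT and -0.54 for *Erbb3* between KO and VAA.

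Whether the DSS change itself differed between genotypes was tested as an interaction. Between KO and WT no gene of the 10 was called by edgeR, and 0% of all genes were. An unadjusted *P* under 0.05, for which the share of all genes was not computed, was found for 5 of the 10: *Ereg* at -2.58 ± 0.45 (adjusted *P* = 0.20), *Nrg1* at -1.92 ± 0.49 (adjusted *P* = 0.28), *Areg* at -1.44 ± 0.32 (adjusted *P* = 0.23), *Erbb2* at 1.04 ± 0.23 (adjusted *P* = 0.23) and *Erbb3* at 0.82 ± 0.25 (adjusted *P* = 0.32). By *P* these ranked from 5th (*Ereg*) to 321st (*Erbb3*) of the 17477 genes tested. DESeq2 called 4 of these, all but *Erbb3*, and limma none. The counts of these 2 tests over all genes are given with the processing alternatives below. Between KO and VAA, a comparison added after the data were seen, *Ereg* (-3.21 ± 0.46, adjusted *P* = 0.041) and *Areg* (-2.33 ± 0.33, adjusted *P* = 0.041) were called, beside 0.0687% of all genes. Neither call held with only the groups compared (adjusted *P* = 0.077 for each), with the replicate block (0.081), with sex as a covariate (0.092) or without both male libraries (0.17). Leaving out 1 library gave between 0 and 4 called genes of the 10, beside 0 to 837 of all genes tested. Both maxima came without VAA DSS replicate 2. *Nrg1* stood at -2.41 ± 0.50 (adjusted *P* = 0.078). Between VAA and WT the edgeR test called none of the 10 and 0% of all genes, with 1, *Areg*, at an unadjusted *P* under 0.05, and none was called by DESeq2 or limma.

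Ratios within a library, which do not depend on its scaling, showed the same split for 2 pairs of ligands. They are drawn from the same counts and so add no separate support. The count of *Ereg* was 0.302 to 0.983 times that of *Areg* in the 6 untreated libraries, 1.94 to 2.90 times in WT and 1.20 to 3.04 times in VAA after DSS, and 0.458 to 0.751 times in KO after DSS. *Nrg1* counts were 0.373 to 0.564 times those of *Tgfa* untreated, 1.42 to 1.73 times in WT, 1.14 to 3.20 times in VAA and 0.354 to 0.597 times in KO after DSS. The WT and VAA libraries after DSS lay above all others for both ratios. The count of *Erbb3* over that of *Erbb2* did not split in this way. It was 1.74 to 2.40 untreated, and 2.05 to 2.24 in WT, 2.08 to 2.60 in VAA and 1.64 to 1.89 in KO after DSS. Per length, *Ereg* made up 13.3% to 19.3% of the transcripts of the 7 ligands in WT and 10.3% to 16.3% in VAA after DSS, against 3.89% to 5.06% in KO after DSS and 4.19% to 7.53% untreated. *Nrg1* made up 24.0% to 29.1% in WT and 22.3% to 38.4% in VAA after DSS, against 8.97% to 18.3% in KO, and 9.78% to 17.2% untreated. These shares take median transcript lengths, and with the longest transcripts the order of the pair in WT after DSS is reversed. *Ereg* then made up 17.7% to 24.9% in WT, 13.1% to 22.3% in VAA and 4.80% to 6.28% in KO after DSS, and *Nrg1* 13.6% to 17.3%, 12.7% to 23.5% and 4.81% to 10.8%.

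**Figure D3:**
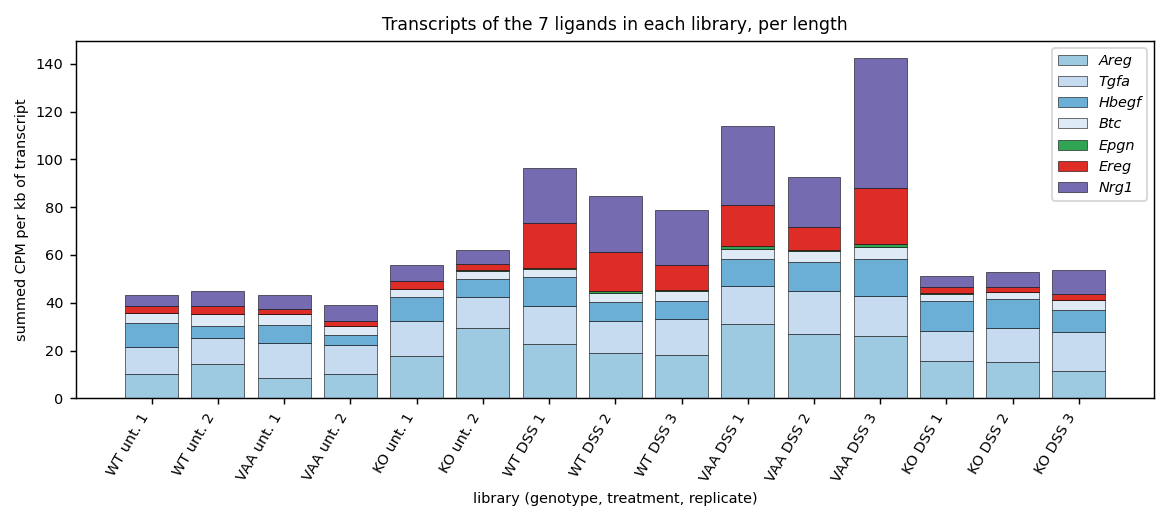
Summed level of the 7 ligands in each library, in CPM per kb of transcript (median length of each gene's protein-coding transcripts), stacked by gene on an axis that starts at 0. The WT and VAA libraries after DSS have the tallest bars, and *Ereg* and *Nrg1* take up more of them than in the other libraries.

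Over the 15 libraries the member most like *Ereg* was *Nrg1*, with a root mean square difference of 0.41 between their centred log2 CPM. *Erbb2* and *Erbb3* were closest to each other (0.19), and so were *Tgfa* and *Egfr* (0.17). Among 11972 candidate genes those most like *Ereg* were *Ctps* (0.40), *Agpat9* (0.41) and *Smim3* (0.41), against a median of 1.29 over the candidates. *Ctps*, which encodes CTP synthase, stood at 14.3 to 20.7 CPM untreated, 49.4 to 137.5 in WT and VAA after DSS and 17.0 to 24.1 in KO after DSS. *Erbb3* was most like *Il22ra1*, which encodes a receptor chain for interleukin 22, *Ipmk* and *Arfgap3* (0.13 each, median 0.44), and *Egfr* was most like *Cdk17*, *Dnajc1* and *Rapgef2* (0.096 to 0.099, median 0.33).

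Other genes of the pathway were read from 5 lists. Among 5 further ligands and receptors, *Erbb4* was too low to be tested. Of the other 4 *Egf* alone was called with DSS in WT, where it fell, beside 12.5% of all genes called lower and 14.1% higher. *Egf*, which encodes the founding ligand, stood at 9.50 and 9.35 CPM untreated and 5.32, 4.52 and 7.02 after DSS in WT, and its change averaged over genotypes was -0.60 ± 0.13 (adjusted *P* = 0.0027). *Nrg4* (0.40 ± 0.27, adjusted *P* = 0.24) was not called, and *Nrg3* had a KO minus WT difference of -1.18 ± 0.69 after DSS (adjusted *P* = 0.36).

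Of 8 genes of ligand shedding, 4 rose and 1 fell with DSS averaged over genotypes, beside 22.5% and 20.0% of all genes, with a list median of 0.36 beside 0.01 over all genes. *Rhbdf2* encodes iRhom2, which carries ADAM17 to the cell surface. It rose from 19.2 and 20.6 CPM to 41.4, 36.4 and 34.4 in WT, and its change was 0.91 ± 0.14 in WT (adjusted *P* = 0.00058), 1.13 ± 0.14 in VAA (adjusted *P* = 0.00014) and 0.58 ± 0.14 in KO (adjusted *P* = 0.022). *Adam10* rose in each genotype, by 0.61 ± 0.08 on average (adjusted *P* = 3.7e-05). *Timp3* encodes an inhibitor of ADAM17 and other metalloproteases, and fell in KO colon from 107 and 109 CPM to 45.7, 44.1 and 51.9 (-1.20 ± 0.21, adjusted *P* = 0.0041). It was lower in KO than in WT colon after DSS (-1.33 ± 0.19, adjusted *P* = 0.0039), with every KO library below every WT library.

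Of 10 negative regulators of the receptors, 4 fell and 1 rose averaged over genotypes, beside 20.0% and 22.5% of all genes, and 5 fell in WT, beside 12.5%. *Lrig3*, of the LRIG family of receptor regulators, fell by 0.83 ± 0.11 (adjusted *P* = 3.9e-05), and *Cbl*, a ubiquitin ligase that sends EGFR to degradation, fell by 0.59 ± 0.08 (adjusted *P* = 5.6e-05). *Lrig3* stood at 76.0, 75.1 and 84.7 CPM in KO after DSS and at 41.5, 56.1 and 71.5 in WT, a difference that missed the threshold (0.48 ± 0.17, adjusted *P* = 0.11). Of 22 adaptors and kinases of the cascade, 7 rose and 4 fell averaged over genotypes with a list median of 0.02, beside 22.5% and 20.0% of all genes. *Nras* (0.60 ± 0.07, adjusted *P* = 1.3e-05) and *Akt1* (0.54 ± 0.07, adjusted *P* = 4e-05) were among those that rose, and *Mapk3*, which encodes ERK1, was 0.40 ± 0.10 higher in KO than in WT colon after DSS (adjusted *P* = 0.037).

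Of the 5 lists, the 19 feedback and target genes of ERK had the widest range of medians over the genotypes. In VAA colon 8 rose and 1 fell with DSS (median 0.83), beside 10.9% and 9.54% of all genes. In WT 3 rose and 2 fell (median 0.20), beside 14.1% and 12.5%, and in KO 1 rose and 3 fell (median -0.31), beside 5.59% and 5.06%. *Epha2*, a receptor tyrosine kinase gene induced through ERK, rose in all 3 genotypes, by 1.77 ± 0.19 in WT, 1.73 ± 0.19 in VAA and 1.38 ± 0.19 in KO (adjusted *P* = 6.4e-05, 5.3e-05 and 0.00098). *Spred2*, an inhibitor of the cascade, fell by 0.48 ± 0.07 on average (adjusted *P* = 0.00019). *Etv5*, an ETS factor, fell in KO colon from 17.3 and 13.6 CPM to 5.19, 6.07 and 9.21 (-1.18 ± 0.34, adjusted *P* = 0.044) and was lower in KO than in WT colon after DSS (-1.37 ± 0.31, adjusted *P* = 0.026). Between KO and VAA colon after DSS 7 of the 19 were called lower, beside 9.41% of all genes.

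**Figure D4:**
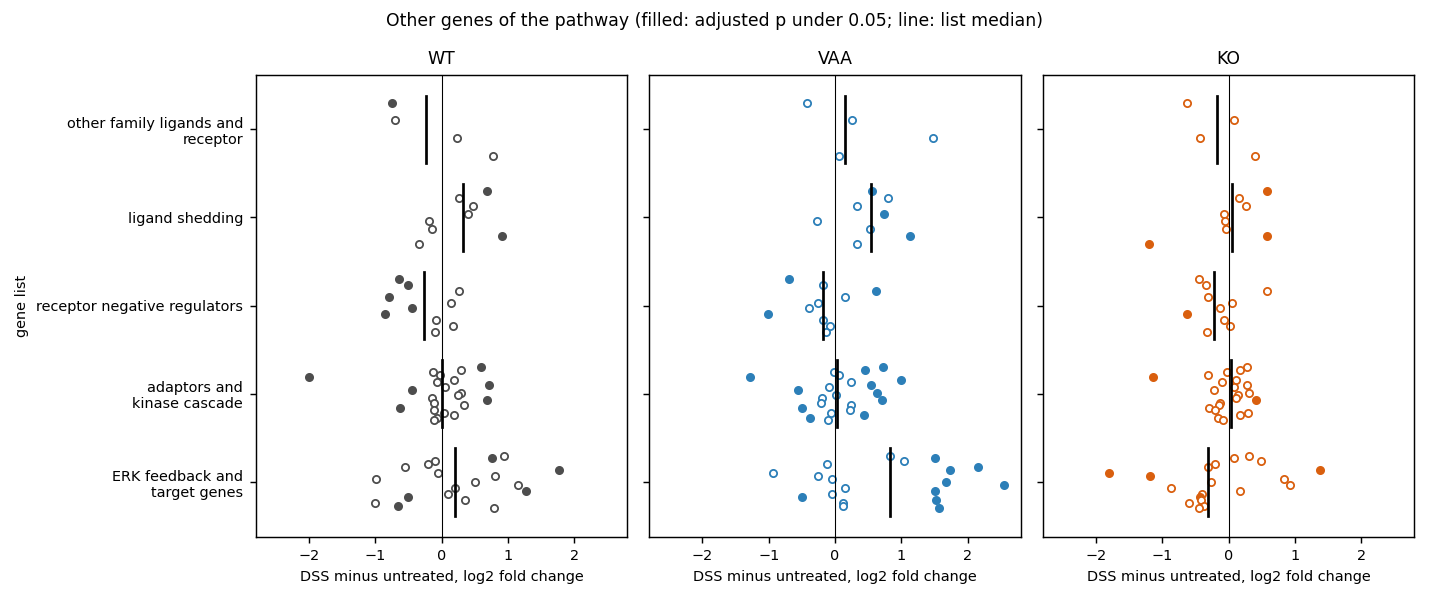
Log2 fold change of DSS against untreated colon for each tested gene of 5 pathway lists, in a panel per genotype, with filled points for an adjusted *P* under 0.05 in edgeR and a black line at the list median. The ERK feedback and target genes have a median of 0.20 in WT, 0.83 in VAA and -0.31 in KO.

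Markers of some cell types were high in the libraries where *Ereg* and *Nrg1* were high, and those of others were not. The summed level of 8 neutrophil markers was 78.0 to 118 CPM untreated, 338 to 406 in WT and 389 to 770 in VAA after DSS, and 112 to 154 in KO after DSS, with *Mmp8* at 0 in the untreated WT, VAA and KO groups and *Retnlg* at 0 in untreated VAA. Of these, 6 were called lower in KO than in WT after DSS and 7 lower than in VAA, beside 2.46% and 9.41% of all genes. For 8 monocyte and macrophage markers the sums were 116 to 206 CPM untreated and 236 to 438 (WT), 325 to 512 (VAA) and 172 to 249 (KO) after DSS. For 6 markers of type 2 innate lymphoid and regulatory T cells, both known sources of *Areg*, they were 10.7 to 16.2 CPM untreated and 42.9 to 59.8 (WT), 61.1 to 99.6 (VAA) and 23.1 to 26.7 (KO) after DSS. *Il1rl1* weighs most in these sums, with 4393 counts over the 15 libraries beside 1590 or fewer for each other marker. *Klrg1* (38 counts) was too low to be tested. The 10 squamous markers, of the anal canal, summed to 6.44 to 8.34 CPM untreated, 12.2, 15.2 and 6.78 in WT, 19.2, 12.0 and 28.9 in VAA and 6.24 to 9.55 in KO after DSS, so that 5 of the 6 WT and VAA libraries after DSS stood above all others. The largest parts were *Dsg3* and *Krt10*, with 674 and 588 counts over the 15 libraries. *Krt5* (47 counts), *Trp63* (37) and *Krt1* (8) were too low to be tested. *Krt6a* was at 0 in untreated VAA and KO, *Trp63* in untreated KO, and *Krt1* in WT and KO after DSS.

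The 7 fibroblast markers summed to 1245 to 1856 CPM untreated and to 1104 to 1794 in WT, 1288 to 3332 in VAA and 797 to 1187 in KO after DSS. All 7 were called lower in KO than in VAA after DSS, beside 9.41% of all genes, and 2 lower than in WT, beside 2.46%. Those of enteric glia and neurons summed to 17.3 to 35.2 CPM untreated and to 20.0 to 26.6 in WT, 24.2 to 135 in VAA and 7.43 to 12.3 in KO after DSS. The 135 came from VAA DSS replicate 3 alone, with replicates 1 and 2 at 33.4 and 24.2 CPM. In KO 7 of 8 were called lower than in VAA, beside 9.41% of all genes. The 10 epithelial markers, of the compartment where *Erbb2* and *Erbb3* are known to be expressed, summed to 9205 to 11464 CPM untreated, 10146 to 10807 in WT and 9223 to 11327 in VAA, and were higher in KO after DSS at 12863 to 15273, where 2 were called higher than in WT, beside 3.21% of all genes, and 5 higher than in VAA, beside 6.01%. The 6 endothelial markers summed to 52.7 to 64.6 CPM untreated and to 48.3 to 66.0 in WT, 60.5 to 193 in VAA and 41.4 to 48.1 in KO after DSS. The 6 T cell markers were highest in KO after DSS, at 31.2 to 33.9 CPM, against 12.1 to 17.7 untreated and up to 26.5 in WT and VAA after DSS, and 0 of them were called between KO and WT or VAA after DSS. The 4 B cell markers ran from 0.957 to 92.2 CPM with all groups after DSS overlapping. The 7 mast cell markers summed to 41.1 to 61.4 CPM untreated and 18.8 to 49.4 after DSS. That sum is mostly *Kit*, with 7674 counts over the 15 libraries beside 252 or fewer for each other marker. *Mcpt2*, *Mcpt4* and *Fcer1a* were at 0 in untreated WT, and *Fcer1a* also in untreated KO and in WT after DSS. The 8 smooth muscle markers, all called lower averaged over genotypes beside 20.0% of all genes, summed to 3783 to 6730 CPM untreated and to 591 to 2428 after DSS over the 3 genotypes. The part of any of these cell types in the changes of the ligands and receptors was not tested.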

How the data were processed

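Mouse colon RNA was read as 15 total RNA libraries in 6 groups taken from the sample labels. A table of estimated counts by gene symbol was deposited by the authors, who used kallisto 0.46 and mm10 per the submitters' processing notes. The transcript set and the summing to genes are not stated in the labels or files. These counts were whole already, so rounding changed 0 values, and 0 columns belonged to other samples. A second deposited table holds the authors' log2 CPM for 17531 genes, which for the 10 genes lay within 0.018 of values recomputed here with a prior count of 2.

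Tests used edgeR 4.0.16 in R 4.3.3: its expression filter, trimmed mean of M values scaling and a quasi-likelihood fit of 1 mean per group over all 15 libraries with 9 residual degrees of freedom. The 13 comparisons were contrasts of group means, and the interaction of KO and VAA was added after the data were seen. *P* values were adjusted by Benjamini-Hochberg over the 17477 genes tested. CPM is the count per M of the library total times its scaling factor. Replicates differed by a chi-square per degree of freedom of 10.9 to 104, far above what counting gives. The fit was checked on simulated data with known changes.

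All 10 genes were tested in every comparison, and the text names those that a comparison turns on and gives others by their range or leaves them out where they were not called. From each pathway list, those named are the 2 with the smallest *P* for DSS averaged over genotypes and the 1 with the smallest *P* for KO against WT after DSS, and for likeness the 3 closest genes that averaged 2 or more in log2 CPM, predicted models left out. The genes and lists were chosen with earlier results of these data known.

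Alternatives were DESeq2 size factors, no filter, the DESeq2 1.42.0 test, limma 3.58.1 on the deposited log2 values, only the groups compared, a replicate block, sex as a covariate, and leaving out every library once. A fit without both male libraries was added after the data were seen. Over 33 pairs of libraries with equal replicate numbers the residual correlation ran from -0.16 to 0.31, with 8 over 0.1, so the numbers were not taken as pairs. Gene positions are from GENCODE M21 on GRCm38, and promoters from RefSeq, which had 6 of the 10 genes.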

Additional observations from a re-analysis of the deposited data

Results flagged for a closer look

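A difference of the DSS change between genotypes drew attention to 4 of the 10 genes. By the interaction test in edgeR, the change in KO stood below that in VAA for *Ereg* (-3.21, adjusted *P* = 0.041) and *Areg* (-2.33, adjusted *P* = 0.041). Both calls were lost with only the groups compared (adjusted *P* = 0.077), with the replicate block (0.081), with sex as a covariate (0.092) and without both male libraries (0.17). Leaving out 1 library lost the *Ereg* call in 11 of 15 cases (adjusted *P* = 0.063 to 0.18) and the *Areg* call in 10 of 15 (0.052 to 0.18).

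Every KO library after DSS lay on one side of the untreated KO libraries, and every WT and VAA library after DSS on the other side of its own untreated group, for the same pair of ligands and for *Erbb2* and *Erbb3*. For *Erbb2* and *Erbb3* the KO part rests on the scaling factors and does not hold on library totals alone. The interactions of these cases did not pass the test. KO minus WT was -2.58 for *Ereg* (adjusted *P* = 0.20), -1.44 for *Areg* (adjusted *P* = 0.23), 1.04 for *Erbb2* (adjusted *P* = 0.23) and 0.82 for *Erbb3* (adjusted *P* = 0.32). KO minus VAA was 1.01 for *Erbb2* (adjusted *P* = 0.093) and 0.82 for *Erbb3* (adjusted *P* = 0.17). The comparisons share the KO libraries, and 1 of the 2 untreated KO libraries and 1 of the 2 untreated WT libraries came from males. The share of all genes whose libraries split in opposite directions in this way was not computed. With 2 untreated and 3 DSS libraries per genotype, a split of the libraries can arise by chance. In KO the nearest libraries were almost level, at 10.7 CPM after DSS and 10.8 untreated for *Ereg*, and 401 and 398 for *Erbb3*. The KO changes of *Ereg*, *Erbb2* and *Erbb3* had an unadjusted edgeR *P* of 0.34, 0.22 and 0.34.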

How the results depend on the processing

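Over the 10 genes, 13 comparisons and 23 alternatives, 2754 of 2981 values kept their direction and their side of the threshold, 0 called values changed sign, 87 lost a call, 26 gained one and 114 uncalled values changed sign. The calls of *Ereg* and *Nrg1* for DSS in WT and in VAA, and for KO against WT and against VAA after DSS, held under all 23. In KO colon DESeq2 and limma each called 1 gene with DSS, *Areg*. Between untreated KO and VAA DESeq2 called 1. For the interaction of KO and WT, 1 was called with no filter, 4 by DESeq2 and 1 with only the groups compared. For that of KO and VAA, DESeq2 called 4, and 0 were called with only the groups compared, with the replicate block, with sex as a covariate or without both male libraries. With sex as a covariate or without the males *Hbegf* and *Tgfa* lost their averaged call (adjusted *P* = 0.089 to 0.13).

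Leaving out 1 library at a time gave 4 to 7 called genes for DSS in WT, 5 to 7 in VAA, 0 to 1 in KO, 6 to 8 averaged, 2 to 5 for KO against WT and 5 to 6 for KO against VAA after DSS, 0 to 1 for the interaction of KO and WT and 0 to 4 for that of KO and VAA. With the replicate number as a block 6 were called in WT (*Tgfa* lost), 3 for KO against WT (*Epgn* lost) and 6 for KO against VAA (*Btc* gained), and no other call changed apart from the 2 lost interaction calls. DESeq2 gave *Epgn* no adjusted *P* for KO against WT after DSS.

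Counts over all genes moved more. DSS in KO called 1862, against 2986 with only the groups compared, 1187 with the sex term and 538 without the males. DSS in VAA called 3571, against 1089 with only the groups compared, and DSS in WT 4642, against 1999 without the males. KO against WT after DSS called 991, against 1753 by DESeq2, 2766 with only the groups compared and 531 without the males, and KO against VAA called 2695, against 545 with only the groups compared. VAA against WT after DSS called 1, against 36 by DESeq2, 2 with no filter and 0 with only the groups compared or with the replicate block. The interaction of KO and WT called 0, against 134 by DESeq2, 9 by limma, 5 with no filter and 31 with only the groups compared, and that of KO and VAA 12, against 523, 115, 107 and 0. The cause was not tested. Without 1 library the counts ran from 1958 to 6505 for DSS in WT, 1789 to 4902 in VAA, 403 to 3750 in KO, 121 to 2704 for KO against WT and 1380 to 3796 for KO against VAA. For the interactions they ran from 0 to 18 (KO and WT) and from 0 to 837 (KO and VAA). The limma fit on log2 values without scaling factors moved the median of all genes by -0.14 for DSS in KO and by -0.10 for KO against WT after DSS. Depth limits *Epgn*, at 0 or 1 counts in each untreated library.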
